A study of Homo sapiens with 6 samples.

Results

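A set of 6 membrane serine proteases and 2 of their Kunitz-type inhibitors were followed across a small panel of lung adenocarcinoma cell lines. The 8 genes were TMPRSS4, TMPRSS13, TMPRSS2, TMPRSS3, ST14, PRSS8, SPINT1 and SPINT2, taken by gene symbol from the 16000 genes listed for all 6 libraries, and all 8 were found. They were selected on their CPM in these libraries and on the ratios of the derived lines to their parents, so those values are given as a description, with no test. The series asks which signalling pathways are responsible for acquired resistance to EGFR tyrosine kinase inhibitors, drugs that block the growth factor receptor on which these cells depend. Total RNA depleted of ribosomal RNA was sequenced from the resistant lines PC-9GR and PC-9ER with their parental line PC-9, and from the resistant lines HCC827GR and HCC827ER with their parental line HCC827, with 1 library per line. A label that reads HCC82GR is treated as HCC827GR. What GR and ER stand for is not written in the labels, nor whether a resistant line is a clone or a pool or whether drug was present in the cultures. All lines were grown in RPMI-1640 with fetal bovine serum. PC-9 and HCC827 are established lines that carry activating EGFR mutations.

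Type II transmembrane serine proteases are anchored in the plasma membrane near their amino terminus and carry the catalytic domain outside the cell. Like other proteases of the trypsin fold they are made as inactive precursors and are switched on by a single cleavage. Matriptase, the product of ST14, and prostasin, the product of PRSS8, which is held in the membrane by a lipid anchor, can activate each other at the surface of epithelial cells. SPINT1 and SPINT2 encode HAI-1 and HAI-2, membrane-bound inhibitors that block matriptase, prostasin and related enzymes. Known substrates of these proteases include the precursor of hepatocyte growth factor, the protease-activated receptor F2RL1 and the epithelial sodium channel.

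Levels are in CPM, the count of a gene per 1000000 counts of its library. The libraries held 14529332 to 17832867 counts and 14484 to 14933 detected genes. A count of 0 allows up to 3 counts, which is 0.168 CPM in the deepest library and 0.206 CPM in the shallowest. The reads carry no molecular identifiers, so these limits and all 95% intervals cover counting error only. The library labelled PC-9GR stood apart from its parent. Its Spearman correlation across genes was 0.825 with PC-9, against 0.861 with HCC827 and 0.868 with HCC827GR, whereas the values of PC-9ER, HCC827GR and HCC827ER with their own parents were 0.970, 0.954 and 0.919. Both ER libraries, and no others, come from a second block of the deposited table, so a difference between the blocks cannot be told apart from one between ER and the other lines. In HCC827ER, ribosomal protein genes took 16.1% of counts, against 5.85% to 8.50% in the other 5 libraries. The epithelial keratins KRT8 and KRT18 were abundant in every library, with KRT8 at 1427 to 5359 CPM. Another keratin, KRT19, was at 13.1 CPM in PC-9GR, against 1939 CPM in PC-9. The 4 lung markers measured were low in the PC-9 lines. NKX2-1, a lung lineage factor, had at most 1.16 CPM in the PC-9 lines and reached 15.2 CPM in HCC827. NAPSA, an alveolar protease, was at 0.505 CPM in PC-9GR and 0.116 CPM in PC-9ER, with PC-9 at 0.118 CPM, and at 3.07 CPM in HCC827GR and 12.5 CPM in HCC827ER, with HCC827 at 28.6 CPM, while SFTPA2 and SFTPB, which encode surfactant proteins, stayed between 0 and 2.96 CPM. Among markers of other cell types, the 4 leukocyte markers summed to 0.141 to 5.10 CPM. Of the 4 endothelial markers, CDH5 and PECAM1 reached 151 and 68.7 CPM in PC-9, where VWF was at 0.237 CPM and KDR at 0. Their part in the results was not tested.

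TMPRSS4 was the gene of the 8 that was low in all resistant lines and present in both parents. ST14, TMPRSS13, PRSS8 and SPINT1 were nearly absent from PC-9GR and low in HCC827GR, while PC-9ER held them at 0.516 to 0.657 of the parental level. Per kilobase of exon SPINT2 was the most abundant of the 8 in every library, and it varied least. No member with at least 1 CPM in either library of a pair was 2-fold higher in a resistant line. TMPRSS2 and TMPRSS3 were at 0 in all HCC827 lines. In bulk cultures, fewer cells that make a transcript and less transcript per cell cannot be told apart. The plot of CPM by library shows all 8 genes.

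**Figure D1:**
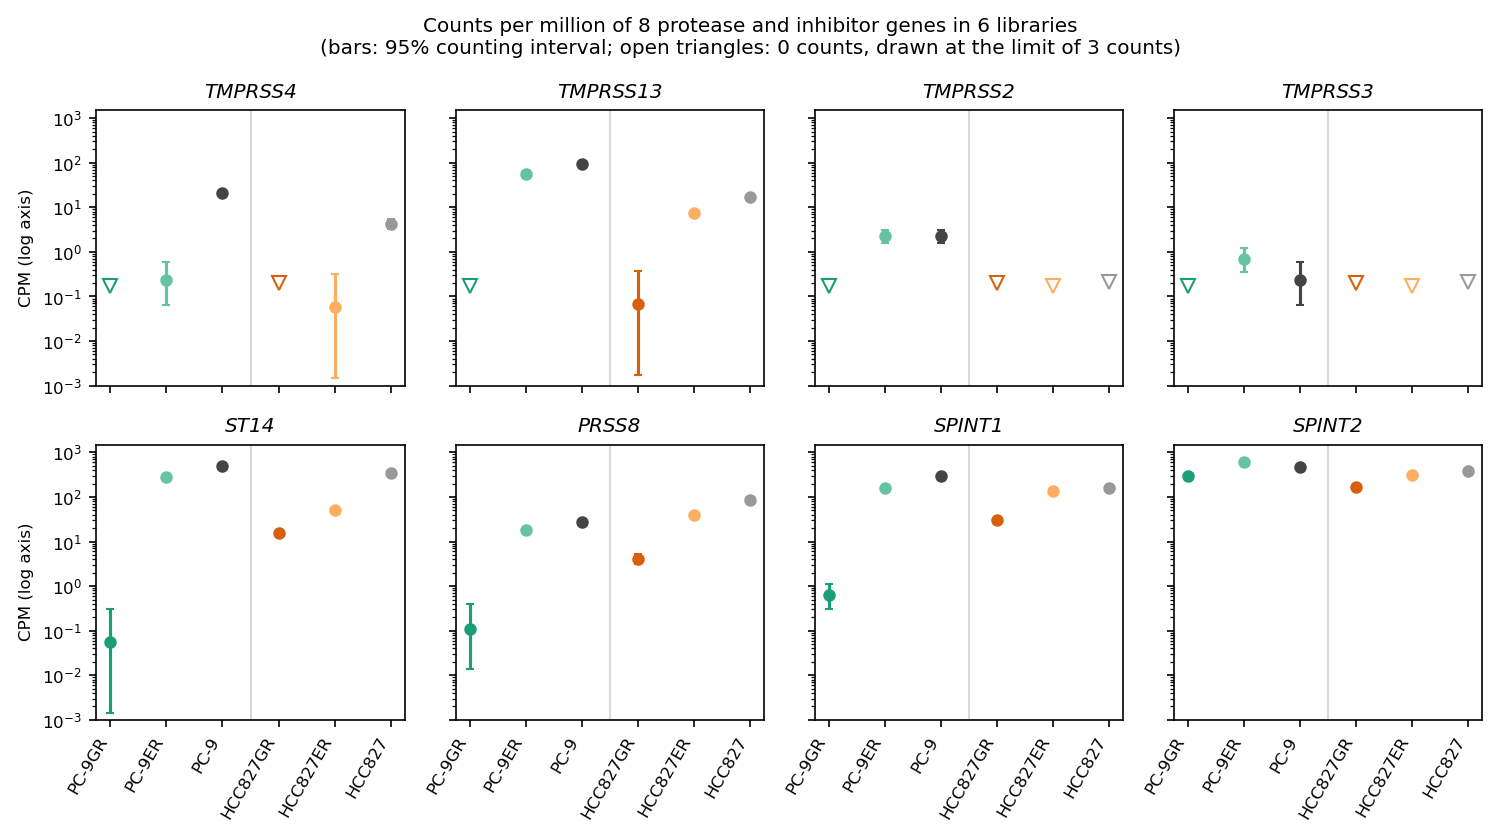
CPM of the 8 genes in the 6 libraries on a logarithmic axis, with 95% counting intervals; open symbols mark a count of 0, drawn at the limit that a count of 0 allows. TMPRSS4 is at 0.232 CPM or less in the 4 resistant lines, with PC-9 at 20.6 CPM and HCC827 at 4.27 CPM, while SPINT2 stays between 164 and 593 CPM.

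TMPRSS4 encodes a transmembrane protease reported in several carcinomas. The gene (NCBI 56649) lies on chromosome 11 from 118077012 to 118121890, plus strand, in GENCODE release 29 on GRCh38. It had 0 counts in PC-9GR and 4 counts, or 0.232 CPM, in PC-9ER, against 348 counts, or 20.6 CPM, in PC-9. It had 0 counts in HCC827GR and 1 count, or 0.0578 CPM, in HCC827ER, against 62 counts, or 4.27 CPM, in HCC827. Both parents thus lay above all 4 resistant lines, and the counting intervals of the resistant lines overlapped one another. Taking 3 counts for the library at 0, the level was 122-fold lower in PC-9GR than in PC-9 and 21.3-fold lower in HCC827GR than in HCC827. By the 95% counting intervals the level was at least 99.0-fold and at least 16.8-fold lower. In PC-9ER it was 88.8-fold lower (95% counting interval 34.4 to 328), and in HCC827ER the ratio to HCC827 was 0.0136 (0.000338 to 0.0784). Genes with at least 1 CPM in a library of a pair were ranked by ratio. Over the 4 pairs, the share at or below TMPRSS4 ran from 0.0244% in PC-9ER to 1.09% in PC-9GR. The same ratios chose TMPRSS4, so nothing is read from these shares. SMIM35 overlaps TMPRSS4 on the other strand, and since the sources do not say whether counting used strand, reads of the pair cannot be told apart.

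TMPRSS13, which encodes another protease of this family, is on the same arm of chromosome 11, from 117900643 to 117929459 on the minus strand, 148 kb from TMPRSS4. It had 0 counts in PC-9GR and 972 counts, or 56.4 CPM, in PC-9ER, against 1606 counts, or 95.0 CPM, in PC-9. It had 1 count, or 0.0668 CPM, in HCC827GR and 130 counts, or 7.52 CPM, in HCC827ER, against 243 counts, or 16.7 CPM, in HCC827. Unlike TMPRSS4, the gene was still well detected in both ER lines and was at the limit of detection in both GR lines. It was at least 565-fold lower in PC-9GR than in PC-9, and its ratio in HCC827GR to HCC827 was 0.00399 (0.000101 to 0.0225). The ratio was 0.593 in PC-9ER and 0.450 (0.360 to 0.558) in HCC827ER.

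TMPRSS2, known for cleaving the spike proteins of coronaviruses and for its androgen-responsive expression in prostate, lies on chromosome 21 from 41464551 to 41531116, minus strand. TMPRSS3, which is needed for hearing, lies on the same chromosome from 42371837 to 42396846, minus strand, 841 kb away. TMPRSS2 had 0 counts in PC-9GR and 39 counts, or 2.26 CPM, in PC-9ER, against 38 counts, or 2.25 CPM, in PC-9. It was at least 13.4-fold lower in PC-9GR than in PC-9, and PC-9ER and PC-9 did not differ beyond counting error. TMPRSS3 had 0 counts in PC-9GR and 12 counts, or 0.696 CPM, in PC-9ER, against 4 counts, or 0.237 CPM, in PC-9, with intervals that overlap. Both genes had 0 counts in HCC827GR, HCC827ER and HCC827, so no ratio can be given there.

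ST14 encodes matriptase and lies on chromosome 11 from 130159562 to 130210376, plus strand. It had 1 count, or 0.0561 CPM, in PC-9GR and 4775 counts, or 277 CPM, in PC-9ER, against 8234 counts, or 487 CPM, in PC-9. It had 227 counts, or 15.2 CPM, in HCC827GR and 889 counts, or 51.4 CPM, in HCC827ER, against 5049 counts, or 348 CPM, in HCC827. All neighbouring libraries in the order of levels (PC-9, HCC827, PC-9ER, HCC827ER, HCC827GR, PC-9GR) had counting intervals that did not overlap. The ratio in PC-9GR to PC-9 was 0.000115 (2.91e-06 to 0.000641). ST14 was 1.76-fold lower in PC-9ER than in PC-9 (1.70 to 1.82), 22.9-fold lower in HCC827GR than in HCC827 (20.1 to 26.3) and 6.76-fold lower in HCC827ER (6.29 to 7.27).

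PRSS8 encodes prostasin and lies on chromosome 16 from 31131433 to 31135762, minus strand, where an antisense gene, AC009088.3, overlaps it. It had 2 counts, or 0.112 CPM, in PC-9GR and 310 counts, or 18.0 CPM, in PC-9ER, against 462 counts, or 27.3 CPM, in PC-9. It had 61 counts, or 4.07 CPM, in HCC827GR and 680 counts, or 39.3 CPM, in HCC827ER, against 1213 counts, or 83.5 CPM, in HCC827. HCC827 and HCC827ER were the highest libraries for this gene, which sets it apart from the other proteases, whose highest library was PC-9 or, for the low TMPRSS2 and TMPRSS3, PC-9ER. The ratio in PC-9GR to PC-9 was 0.00410 (0.000495 to 0.0149). PRSS8 was 1.52-fold lower in PC-9ER than in PC-9 (1.31 to 1.76), 20.5-fold lower in HCC827GR than in HCC827 (15.8 to 27.0) and 2.12-fold lower in HCC827ER (1.93 to 2.34).

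SPINT1, the gene of the inhibitor HAI-1, lies on chromosome 15 from 40844018 to 40858207, plus strand, with SPINT1-AS1 overlapping it on the other strand. It had 11 counts, or 0.617 CPM, in PC-9GR and 2681 counts, or 155 CPM, in PC-9ER, against 5094 counts, or 301 CPM, in PC-9. It had 459 counts, or 30.7 CPM, in HCC827GR and 2392 counts, or 138 CPM, in HCC827ER, against 2268 counts, or 156 CPM, in HCC827. The gene was near the floor in PC-9GR, and the intervals of HCC827 and PC-9ER overlapped. SPINT1 was 489-fold lower in PC-9GR than in PC-9 (273 to 980), 1.94-fold lower in PC-9ER (1.85 to 2.03) and 5.09-fold lower in HCC827GR than in HCC827 (4.60 to 5.64). In HCC827ER it was 1.13-fold lower by CPM (1.06 to 1.20), a direction that flipped under other scalings: the log2 ratio was -0.17 by CPM, 0.17 with TMM scaling and 0.20 with DESeq2 size factors.

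The RefSeq promoter table held windows for SPINT1 and TMPRSS3 among the 8 genes. Windows run from 250 bases before to 50 bases after a start and were searched on both strands for 3 motifs: AACCNGTT, bound by grainyhead-like factors; CACCTG, an E-box bound by ZEB and SNAI factors; and TGANTCA, bound by AP-1. Of 35116 windows, 1.73% held AACCNGTT, 20.6% held CACCTG and 7.71% held TGANTCA. The SPINT1 windows are shown because that gene moved furthest of the inhibitors, with the match in capitals (GRCh38.p14, plus strand). The first holds TGACTCA from 6 bases before the start to the start itself, and the second holds CAGGTG, the reverse complement of CACCTG, 26 to 21 bases before the start. The TMPRSS3 window held none of the 3. A match is letters in a window, not evidence of binding.
SPINT1 upstream start, chr15:40843798-40844097: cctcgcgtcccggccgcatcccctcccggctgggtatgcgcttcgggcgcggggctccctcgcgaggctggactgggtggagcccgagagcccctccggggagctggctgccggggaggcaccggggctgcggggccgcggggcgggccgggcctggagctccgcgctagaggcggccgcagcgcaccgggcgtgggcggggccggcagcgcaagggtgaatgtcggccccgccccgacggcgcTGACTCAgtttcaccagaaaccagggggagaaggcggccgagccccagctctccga
SPINT1 downstream start, chr15:40844227-40844526: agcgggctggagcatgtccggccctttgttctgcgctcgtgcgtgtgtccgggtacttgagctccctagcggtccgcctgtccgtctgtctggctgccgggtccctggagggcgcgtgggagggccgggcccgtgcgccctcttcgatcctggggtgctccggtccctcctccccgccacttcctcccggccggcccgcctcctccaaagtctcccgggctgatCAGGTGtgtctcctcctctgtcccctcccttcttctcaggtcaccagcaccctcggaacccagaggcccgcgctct

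SPINT2, the gene of the inhibitor HAI-2, lies on chromosome 19 from 38244035 to 38292614, plus strand. It had 5213 counts, or 292 CPM, in PC-9GR and 10228 counts, or 593 CPM, in PC-9ER, against 8039 counts, or 476 CPM, in PC-9. It had 2449 counts, or 164 CPM, in HCC827GR and 5236 counts, or 303 CPM, in HCC827ER, against 5549 counts, or 382 CPM, in HCC827. The gene remained high in PC-9GR, where SPINT1 and all 6 proteases were at 0.617 CPM or less. It was 1.63-fold lower in PC-9GR than in PC-9 (1.57 to 1.69), 1.25-fold higher in PC-9ER (1.21 to 1.28) and 2.34-fold lower in HCC827GR than in HCC827 (2.23 to 2.45). In HCC827ER the log2 ratio was -0.33 by CPM but 0.01 with TMM scaling and 0.04 with DESeq2 size factors. PPP1R14A, which overlaps SPINT2 on the other strand, was at 63.9 CPM in PC-9GR and 0 CPM in PC-9ER, against 0 CPM in PC-9, so the 8039 SPINT2 counts of PC-9 stood beside none for PPP1R14A. It was at 8.88 CPM in HCC827GR and 6.25 CPM in HCC827ER, against 15.9 CPM in HCC827. AC011479.1 overlaps SPINT2 on the same strand, and how the counting split reads between them is not given.

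TMPRSS3 was under 1 CPM in every library and entered no count, and TMPRSS2 entered those of the PC-9 lines. A member counted as lower in size when its log2 ratio, with a prior count of 2, was -1 or below and either library of the pair had at least 1 CPM. In PC-9GR 6 of 7 eligible members were at least 2-fold lower than in PC-9, beside 20.9% of the 13018 eligible genes. In PC-9ER 1 of 7 was lower, beside 7.60% of 12286 genes. In HCC827GR 6 of 6 were lower than in HCC827, beside 8.79% of 12595 genes, and in HCC827ER 4 of 6, beside 28.3% of 12599 genes. The HCC827ER count was 2, TMPRSS4 and ST14, once ratios were scaled by TMM or DESeq2 size factors or set relative to the all-gene median, which lay at a log2 ratio of -0.35 in that pair. No eligible member was at least 2-fold higher, beside 20.9% of genes in PC-9GR, 5.48% in PC-9ER over PC-9, and 8.18% in HCC827GR and 11.3% in HCC827ER over HCC827. The same ratios chose the members, so nothing is read from these counts. Closest to the line in the 4 pairs were PRSS8 in HCC827ER, inside it at -1.08, and SPINT1 in PC-9ER, outside it at -0.95.

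TMPRSS4 was the 1 member at least 2-fold lower in all 4 pairs, beside 109 of 11431 genes, or 0.954%. Without the library labelled PC-9GR, TMPRSS4 was again the 1 member lower in the 3 remaining pairs, beside 1.31% of 11493 genes. Without PC-9ER, or without PC-9, the count was 4, with TMPRSS13, ST14 and PRSS8 beside TMPRSS4, where 2.93% of 11889 genes were lower in the 3 pairs without PC-9ER and 5.72% of 12387 in the HCC827 pairs. In all 4 pairs no member reached a 2-fold higher level, beside 0.367% of genes, or in the 3 pairs without PC-9GR, beside 0.635%. Pairs with the same parent share its library, so they are not independent. The median log2 ratio of the eligible members was -7.41 for PC-9GR and -0.75 for PC-9ER over PC-9, and -4.41 for HCC827GR and -1.11 for HCC827ER over HCC827, against -0.02, 0.03, 0.06 and -0.35 for all genes of those pairs. With counts under 3 raised to 3, the members' medians were -7.34, -0.75, -4.39 and -1.12.

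**Figure D2:**
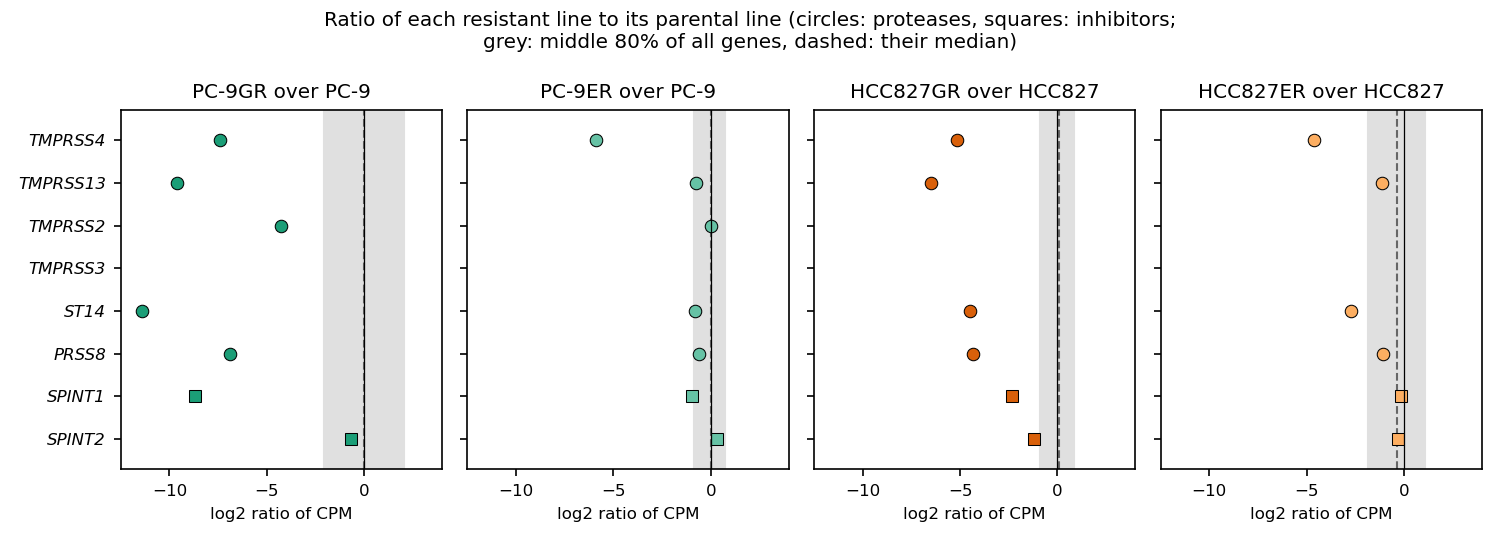
Log2 ratio of CPM (prior count 2) of each of the 8 genes in the 4 resistant lines over their parent, with a band for the middle 80% of all genes of each pair; genes under 1 CPM in both libraries of a pair have no point. TMPRSS4 lies below the band in every pair, at -7.41 for PC-9GR, -5.87 for PC-9ER, -5.17 for HCC827GR and -4.61 for HCC827ER, while SPINT2 lies between -1.22 and 0.32.

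The parents themselves differed. TMPRSS4 and TMPRSS13 were lower in HCC827 than in PC-9, with ratios of 0.207 (0.156 to 0.272) and 0.176 (0.153 to 0.201). ST14, SPINT1 and SPINT2 had ratios of 0.713, 0.518 and 0.803. PRSS8 was the 1 member higher in HCC827, 3.05-fold (2.74 to 3.41). TMPRSS2 had 0 counts in HCC827 and 38 in PC-9.

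Between the resistant lines of HCC827, 5 members with counts in both were higher in ER than in GR. The ratio of HCC827ER to HCC827GR was 113 for TMPRSS13 (19.9 to 4481), 9.65 for PRSS8 (7.42 to 12.8), 4.51 for SPINT1 (4.08 to 5.00), 3.39 for ST14 (2.93 to 3.94) and 1.85 for SPINT2 (1.76 to 1.94). TMPRSS4 was at 1 count in HCC827ER and 0 in HCC827GR. In the PC-9 lines the ratio of PC-9ER to PC-9GR was 4938 for ST14 (886 to 195077), 252 for SPINT1 (141 to 506), 160 for PRSS8 (44.0 to 1329) and 2.03 for SPINT2 (1.96 to 2.10). TMPRSS13 was 335-fold higher taking 3 counts for PC-9GR, and at least 272-fold higher by the 95% counting interval. These contrasts coincide with the block of the table noted above.

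Levels of different genes were compared per kilobase of exon. The proteases summed to 0.0758 CPM per kilobase in PC-9GR and 99.5 in PC-9ER, against 175 in PC-9. They summed to 6.47 in HCC827GR and 37.0 in HCC827ER, against 147 in HCC827. The inhibitors summed to 162 in PC-9GR and 380 in PC-9ER, against 363 in PC-9, and to 101 in HCC827GR and 213 in HCC827ER, against 263 in HCC827. Proteases thus made up 0.0466% of the per-kilobase level of the 8 genes in PC-9GR and 20.8% in PC-9ER, against 32.5% in PC-9, and 6.03% in HCC827GR and 14.8% in HCC827ER, against 35.8% in HCC827. Every resistant line had a smaller protease share than its parent, with the longest transcript as the length too. SPINT2 alone made up 99.8% in PC-9GR and 68.6% in PC-9ER, against 49.1% in PC-9, and 84.6% in HCC827GR and 67.1% in HCC827ER, against 51.7% in HCC827.

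**Figure D3:**
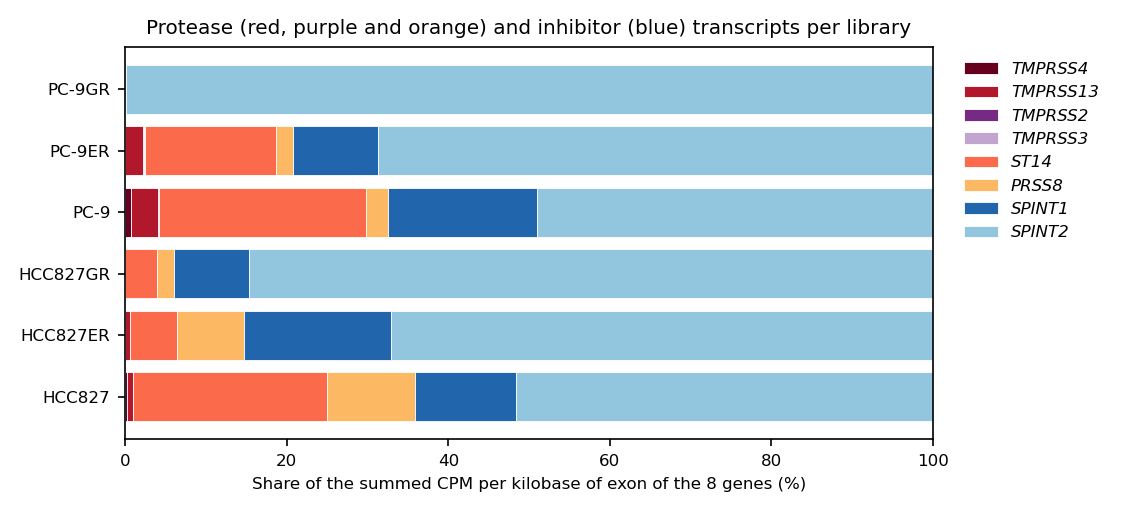
Share of the summed CPM per kilobase of exon that each of the 8 genes holds in each library, with proteases in red, purple and orange and inhibitors in blue. The protease part is smaller in each resistant line than in its parent, at 0.0466% in PC-9GR and 20.8% in PC-9ER against 32.5% in PC-9, and SPINT2 fills most of the bar in PC-9GR.

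The ratio of matriptase to its inhibitor HAI-1 at the RNA level, ST14 over SPINT1 per kilobase, was 0.0785 in PC-9GR (0.00182 to 0.540, from 1 and 11 counts) and 1.54 in PC-9ER (1.47 to 1.61), against 1.40 in PC-9 (1.35 to 1.45). It was 0.427 in HCC827GR (0.363 to 0.502) and 0.321 in HCC827ER (0.297 to 0.347), against 1.92 in HCC827 (1.83 to 2.02). PC-9ER was the resistant line in which this ratio stood no lower than in its parent, and in both HCC827 derivatives it was below 1. ST14 over PRSS8 was 8.15 in PC-9ER, against 9.43 in PC-9, and 1.97 in HCC827GR and 0.692 in HCC827ER, against 2.20 in HCC827. HCC827ER was the 1 library with countable levels in which prostasin RNA exceeded matriptase RNA per kilobase.

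Other genes of the pathway were taken from lists of pathway genes and tested across all genes, comparing all resistant with all parental libraries and blocking on the parent. With edgeR's quasi-likelihood test, 0 of 13492 genes passed an adjusted p of 0.05 in either direction, and the smallest adjusted p was 0.999. At an unadjusted p under 0.05 there were 342 genes. DESeq2 called 25 genes higher and 14 lower of 16000, or 0.156% and 0.0875%, and limma-voom called 0, with 490 at an unadjusted p under 0.05. Values of the listed genes below are therefore given as measured, and every listed gene that was tested had an adjusted p of 0.999 with edgeR.

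Of 18 substrates and receptors linked to these proteases, 10 of 16 eligible genes were at least 2-fold lower and 2 higher in PC-9GR, beside 20.9% of all genes each way, with a median log2 ratio of -3.12, or -2.85 with low counts raised to 3. In PC-9ER 5 of 15 were lower and 0 higher (median -0.51), beside 7.60% and 5.48% of all genes. In HCC827GR 8 were lower and 3 higher of 15 (-1.42), beside 8.79% and 8.18%, and in HCC827ER 9 lower and 3 higher of 15 (-1.36), beside 28.3% and 11.3%. The fitted fold change over all lines was below 0 for 14 of 17 tested and above 0 for 3, beside 46.8% and 53.2% of all genes tested. SCNN1A, the alpha subunit of the epithelial sodium channel that prostasin and matriptase can activate, was at 16.9 CPM in PC-9GR and 95.2 CPM in PC-9ER, against 478 CPM in PC-9, and at 4.01 CPM in HCC827GR and 35.7 CPM in HCC827ER, against 168 CPM in HCC827. Its fitted log2 fold change was -2.93 ± 1.01 (SE). MST1R, the receptor of macrophage-stimulating protein, was at 6.17 CPM in PC-9GR and 10.1 CPM in PC-9ER, against 18.2 CPM in PC-9, and at 3.87 CPM in HCC827GR and 7.81 CPM in HCC827ER, against 42.8 CPM in HCC827. SCNN1G, the gamma subunit, was at 0.0561 CPM in PC-9GR and 10.8 CPM in PC-9ER, against 38.5 CPM in PC-9, and was at or below 0.206 CPM in the HCC827 lines.

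Against this direction, PDGFD, a growth factor that needs proteolytic release, was at 53.6 CPM in PC-9GR and 24.0 CPM in PC-9ER, against 12.0 CPM in PC-9, and at 7.88 CPM in HCC827GR and 26.4 CPM in HCC827ER, against 3.65 CPM in HCC827. IGFBP7, a secreted binding protein that matriptase can cleave, was at 268 CPM in PC-9GR and 0 CPM in PC-9ER, against 0.119 CPM in PC-9, and at 42.9 CPM in HCC827GR and 196 CPM in HCC827ER, against 0.833 CPM in HCC827. MST1 had log2 ratios of 0.11 to 0.53 in the 4 pairs, from 13 to 25 counts per library. It was under 1 CPM in all PC-9 lines, below the minimum set for a ratio. MET, the receptor of hepatocyte growth factor, was at 243 CPM in PC-9GR and 156 CPM in PC-9ER, against 163 CPM in PC-9, and at 464 CPM in HCC827GR and 94.6 CPM in HCC827ER, against 617 CPM in HCC827. F2RL1, a receptor that matriptase can cleave, was at 196 CPM in PC-9GR and 97.4 CPM in PC-9ER, against 218 CPM in PC-9. It was at 48.3 CPM in HCC827GR and 32.2 CPM in HCC827ER, against 82.8 CPM in HCC827, with all 4 resistant lines below their parents. The growth factor itself, HGF, was not analysed here. EPCAM, an epithelial surface protein that matriptase can cleave, was at 1.91 CPM in PC-9GR and 406 CPM in PC-9ER, against 384 CPM in PC-9. In HCC827GR it was at 29.0 CPM and in HCC827ER at 107 CPM, against 460 CPM in HCC827.

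**Figure D4:**
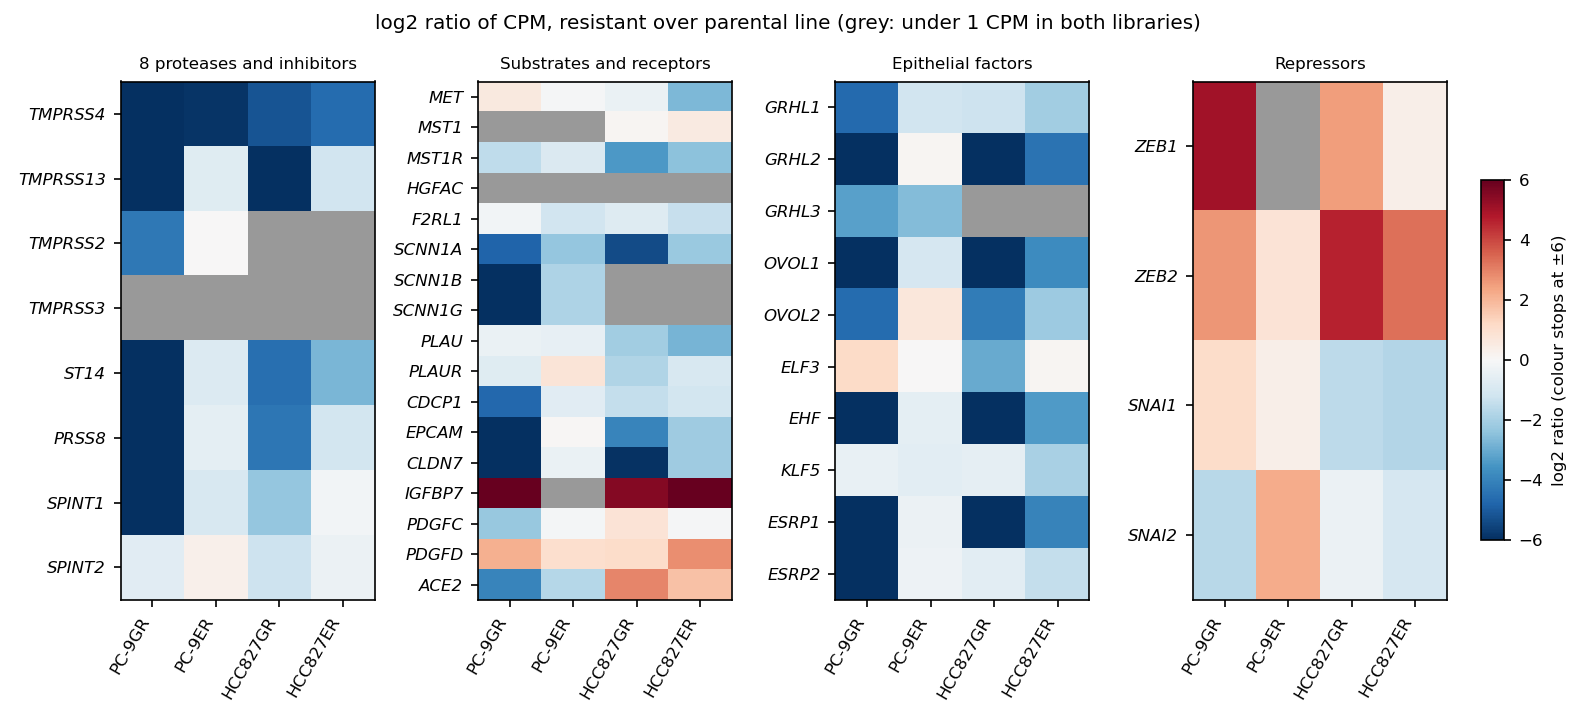
Log2 ratio of CPM of each resistant line over its parent for the 8 genes, 17 substrates and receptors, 10 factors that drive epithelial genes or their splicing and 4 repressors; colour stops at ±6 and grey marks genes under 1 CPM in both libraries. GRHL2 and ESRP1 are near 0 in PC-9ER and far below 0 in PC-9GR, HCC827GR and HCC827ER, while ZEB2 is above 0 in all 4 lines.

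Factors that drive epithelial genes or their splicing were mostly lower in PC-9GR, HCC827GR and HCC827ER. In PC-9GR 8 of 10 were at least 2-fold lower and 1 higher, in PC-9ER 3 of 10 lower, in HCC827GR 7 of 9 and in HCC827ER 8 of 9. Of all genes, 20.9%, 7.60%, 8.79% and 28.3% were lower in these lines, and 20.9% were higher in PC-9GR. The factors had median log2 ratios of -5.82, -0.46, -4.20 and -2.18 in that order of lines, or -5.91, -0.46, -4.51 and -2.24 with low counts raised to 3. GRHL2, a grainyhead-like transcription factor of epithelia, was at 0 CPM in PC-9GR and 102 CPM in PC-9ER, against 94.3 CPM in PC-9, and at 0.200 CPM in HCC827GR and 2.60 CPM in HCC827ER, against 57.8 CPM in HCC827. Its fitted log2 fold change was -3.44 ± 2.53. ESRP1, an epithelial splicing regulator, was at 0.224 CPM in PC-9GR and 209 CPM in PC-9ER, against 265 CPM in PC-9, and at 1.40 CPM in HCC827GR and 14.3 CPM in HCC827ER, against 235 CPM in HCC827. GRHL1, GRHL3 and OVOL1 had a log2 ratio below 0 in all 4 pairs, between -7.31 and -1.02, though GRHL3 was under 1 CPM in all HCC827 lines. ELF3 was the 1 factor higher in PC-9GR, at 350 CPM, with 164 CPM in PC-9ER, against 159 CPM in PC-9. It was at 31.1 CPM in HCC827GR and 277 CPM in HCC827ER, against 252 CPM in HCC827. Of the 4 repressors of epithelial genes, ZEB1 was at 25.2 CPM in PC-9GR and 0.754 CPM in PC-9ER, against 0.651 CPM in PC-9, and at 36.9 CPM in HCC827GR and 8.15 CPM in HCC827ER, against 6.40 CPM in HCC827. ZEB2 was above its parent in every line, with log2 ratios of 2.64 for PC-9GR and 0.81 for PC-9ER, and of 4.61 for HCC827GR and 3.32 for HCC827ER. SNAI1 had log2 ratios of 1.11 for PC-9GR and 0.37 for PC-9ER, and of -1.59 for HCC827GR and -1.74 for HCC827ER. SNAI2 had log2 ratios of -1.67 for PC-9GR and 2.22 for PC-9ER, and of -0.36 for HCC827GR, and it was at 12.8 CPM in HCC827ER, against 25.8 CPM in HCC827. The repressors thus had no common direction. Whether these factors act on the members was not tested.

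Other proteases and inhibitors were compared for their likeness to the members. PRSS22, also called tryptase epsilon, was at 0.0561 CPM in PC-9GR and 15.0 CPM in PC-9ER, against 20.8 CPM in PC-9, and at 1.14 CPM in HCC827GR and 12.3 CPM in HCC827ER, against 25.9 CPM in HCC827. PRSS21, the lipid-anchored protease testisin, was at 0 CPM in PC-9GR and 49.3 CPM in PC-9ER, against 47.9 CPM in PC-9, but at 53.4 CPM in HCC827GR and 77.4 CPM in HCC827ER, against 46.8 CPM in HCC827. PRSS27 and TPSG1 were at 3.41 CPM or less in every library. Of 14 other inhibitors, 4 of 8 eligible were at least 2-fold lower and 3 higher in PC-9GR, beside 20.9% of all genes each way. In PC-9ER 0 of 7 were lower or higher, beside 7.60% and 5.48%. In HCC827GR 5 of 12 were lower and 2 higher, beside 8.79% and 8.18%. In HCC827ER 2 of 12 were lower and 6 higher, beside 28.3% and 11.3%. The fitted fold change was above 0 for 9 of 12 tested and below 0 for 3, beside 53.2% and 46.8% of all genes tested. SERPINB5, the serpin maspin of epithelial cells, was below its parent in all 4 pairs. It was at 0 CPM in PC-9GR and 27.8 CPM in PC-9ER, against 37.6 CPM in PC-9, and at 0.200 CPM in HCC827GR and 0.0578 CPM in HCC827ER, against 15.1 CPM in HCC827. APLP2, which has forms with a Kunitz domain, had log2 ratios between -1.65 and -0.15. Other transmembrane proteases were low. TMPRSS5, TMPRSS6, TMPRSS9 and CORIN stayed at 0.668 CPM or less. HPN was higher in HCC827ER, at 5.32 CPM from 92 counts, against 0.275 CPM from 4 counts in HCC827, with 0 in HCC827GR. TMPRSS11E was higher in PC-9ER, at 1.51 CPM from 26 counts, against 0.0592 CPM from 1 count in PC-9. It was at 3.44 CPM in HCC827, against 0 CPM in HCC827GR and HCC827ER.

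Markers of epithelial and mesenchymal cells differed between the lines as well. Of 11 epithelial markers, 8 in PC-9GR and 2 in PC-9ER were at least 2-fold below PC-9, beside 20.9% and 7.60% of all genes. In HCC827GR 9 and in HCC827ER 7 were at least 2-fold below HCC827, beside 8.79% and 28.3%. EPCAM and CLDN7 are among these markers and also among the substrates counted above, so the tallies overlap. KRT8 and KRT18 had log2 ratios of 0.50 and 0.46 in PC-9GR. KRT19, a keratin, was at 13.1 CPM in PC-9GR and 1066 CPM in PC-9ER, against 1939 CPM in PC-9, and at 225 CPM in HCC827GR and 583 CPM in HCC827ER, against 2159 CPM in HCC827. VIM, the mesenchymal filament vimentin, was at 1391 CPM in PC-9GR and 169 CPM in PC-9ER, against 5.27 CPM in PC-9, and at 929 CPM in HCC827GR and 723 CPM in HCC827ER, against 98.0 CPM in HCC827. In PC-9GR 3 of 4 mesenchymal markers, VIM, CDH2 and SPARC, were at least 2-fold higher, beside 20.9% of all genes. The median log2 ratio of the 4 was 4.91. CDH2 was at 64.8 CPM there and at 0.267 CPM or less in the other 5 libraries. SPARC had a log2 ratio of 1.81 there, but of -1.02 for PC-9ER, from 8 against 18 counts. FN1 was below the parent in both GR lines, at -1.15 for the PC-9 derivative and -1.61 for that of HCC827. In the ER lines FN1 was at 0.49 and -0.03. Outside PC-9GR, VIM was the 1 eligible mesenchymal marker at least 2-fold higher. The part of these markers in the members' levels was not tested.

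Genes whose profiles over the 6 libraries were most like each member were found by the root mean square difference of centred log2 CPM among 12819 genes, a description with no test. The nearest to TMPRSS4 was CAPN8, a calpain, at a difference of 0.74 log2 units. RAB25, a small GTPase of epithelial cells, was nearest to TMPRSS13 at 0.60, and MAL2, a protein of vesicle transport, was nearest to ST14 at 0.42, with MUC16 at 0.69 also among its nearest 3. CRABP2, which binds retinoic acid, was nearest to PRSS8 at 0.54, followed by PRSS22 at 0.67 and CLDN4 at 0.72. CBLC, a ubiquitin ligase, was nearest to SPINT1 at 0.44, followed by RAMP1 at 0.53 and GNA15 at 0.58. VWA7 was nearest to SPINT2 at 0.11. For TMPRSS2, TMEM171 was nearest at 0.18, from few counts. Among the members, PRSS8 and SPINT1 were the closest pair at 0.91, followed by ST14 and SPINT1 at 1.24, while ST14 and SPINT2 were the furthest apart at 3.66.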

How the data were processed

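Total RNA of 6 lung adenocarcinoma lines, 1 library each, was sequenced with a stranded kit after ribosomal RNA depletion, per the labels. The authors deposited expected counts per gene in a table of 2 blocks. Per the submitters' processing notes, HISAT2 2.0.4, GRCh38.p13 and Cuffdiff were used, with no role or order given; the program that made the counts, and whether it used strand, are not given in the sources used here. Between 13.4% and 14.6% of values were not whole, and all expected counts were rounded before testing. The blocks listed 16854 and 16306 genes; 854 and 306 genes outside the 16000 shared were left out. No gene of the first block was at 0 in all its 4 libraries, against 399 of the second in both of its libraries.

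CPM used the total of the shared genes. Log2 ratios used a prior count of 2 and needed at least 1 CPM in a library of the pair; a ratio of at least 2-fold was counted. Intervals are exact, at 95%. Lengths and positions came from GENCODE release 29 on GRCh38, where 15709 genes matched a single entry, and promoters from RefSeq. All genes were tested with edgeR 4.0.16 (TMM, quasi-likelihood, line of origin as block, 3 residual degrees of freedom, Benjamini-Hochberg adjustment at 0.05) in R 4.3.3, and with DESeq2 1.42.0 and limma 3.58.1 as alternatives. A check on simulated data came first. It used large changes shared by all resistant lines and a dispersion below the 0.416 fitted here. It therefore does not show what the test can detect in these data. No line has a second library, so p-values measure the spread between resistant lines, not between cultures. The members and all lists were chosen with earlier results of these data known. Named were the 8 members, every gene of lists with 5 or fewer measured, otherwise up to 3 each way with 1 direction in all 4 pairs, with GRHL2, MET and F2RL1 always, and up to 3 genes most like each member. CLDN7, ELF3, ESRP1, EPCAM, IGFBP7, KRT18, KRT8, PPP1R14A and genes of the protease list were named after their values had been seen. Some genes that the rule names are not reported here. Other settings tried were scaling, prior count, minimum CPM, fold, length and leaving out each library.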

Additional observations from a re-analysis of the deposited data

Results flagged for a closer look

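SNAI1 and COL1A1 moved in opposite directions in the PC-9 and the HCC827 lines. SNAI1, a repressor of epithelial genes, had log2 ratios over PC-9 of 1.11 for PC-9GR and 0.37 for PC-9ER, and over HCC827 of -1.59 for HCC827GR and -1.74 for HCC827ER. The mean of the PC-9 lines minus that of the HCC827 lines was 2.41. COL1A1, a collagen of fibroblasts, was at 30.3 CPM in PC-9GR and 41.0 CPM in PC-9ER, against 22.5 CPM in PC-9, but at 3.41 CPM in HCC827GR and 2.49 CPM in HCC827ER, against 6.95 CPM in HCC827, with a difference of mean log2 ratios of 1.87. The difference was not tested for either gene. Resistant lines of a parent share the parental library, and SNAI1 and COL1A1 each changed the sign of the fitted fold change without HCC827. No member moved in opposite directions this way.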

How the results depend on the processing

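The number of members at least 2-fold lower in HCC827ER was 4 by CPM and 2 with TMM scaling, with DESeq2 size factors, at 4-fold or relative to the median of all genes, a setting chosen after seeing the data. With no minimum CPM, 1 member, TMPRSS3, was at least 2-fold higher in PC-9ER, against 0. The count lower in all pairs ranged from 1 to 4 as each library was left out, also chosen after seeing the data. DESeq2 called 25 genes higher and 14 lower, where edgeR called 0. Of 130 recomputed member ratios, 113 stayed within their counting interval, 17 moved and 0 changed the sign of a called value. Of 33 named genes fitted, 8 changed sign when a library was left out: PRSS21 ranged from -3.34 to 0.69, PRSS27 from -0.97 to 0.79, SNAI1 from -1.53 to 0.83, SNAI2 from -1.02 to 1.33, NAPSA from -1.59 to 1.37, FN1 from -0.80 to 0.08, COL1A1 from -1.10 to 0.68 and MET from -1.11 to 0.31. The causes were not tested. The labels give no replicate numbers, so libraries were paired by parental line alone, and without that block edgeR again called 0 genes. Depth limits TMPRSS4, TMPRSS2 and TMPRSS3, whose low libraries hold 0 to 12 counts, where the floor of 3 counts lies at 0.168 to 0.206 CPM. It also limits TMPRSS13, ST14, PRSS8 and SPINT1 in PC-9GR, at 0, 1, 2 and 11 counts, and TMPRSS13 in HCC827GR, at 1 count. Folds against such libraries depend on the floor or the prior count. With a prior count of 5, PC-9GR log2 ratios moved from -9.61 to -8.29 for TMPRSS13, from -11.42 to -10.40 for ST14 and from -6.88 to -6.05 for PRSS8.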

Other observations

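Neighbours within 250 kb of the members moved in either direction, in a search made after the members' values were known. In PC-9GR, 4 of 4 eligible neighbours of ST14, 3 of 4 of TMPRSS4, 3 of 4 of TMPRSS3 and 1 of 3 of TMPRSS2 were at least 2-fold lower, and none of these genes' other neighbours was higher except 1 near TMPRSS4. Of the neighbours of PRSS8, 4 of 19 were lower and 4 higher, of SPINT1 1 of 12 lower and 2 higher, of SPINT2 0 of 10 lower and 8 higher, and the 1 eligible neighbour of TMPRSS13 was higher. Of all genes in that pair, 20.9% were lower and 20.9% higher. The 4 ST14 neighbours had a median log2 ratio of -1.24 there, against -11.42 for ST14 itself. In PC-9ER, 0 of 4 (ST14), 0 of 3 (TMPRSS4), 3 of 4 (TMPRSS3) and 0 of 3 (TMPRSS2) were lower and 0 higher. In HCC827GR, 0 of 4, 2 of 4, 1 of 1 and 2 of 3 were lower in that order, with 1 higher near ST14. Near TMPRSS4, 1 was higher. In HCC827ER, 1 of 4, 3 of 5, 1 of 2 and 0 of 3 were lower. There 1 was higher near ST14, 2 near TMPRSS4 and 1 near TMPRSS2. MPZL2 and MPZL3, which encode adhesion molecules near TMPRSS4, were at 0 and 0.393 CPM in PC-9GR and at 84.5 and 22.6 CPM in PC-9ER, against 69.2 and 25.6 CPM in PC-9. In HCC827GR they were at 1.34 and 2.80 CPM and in HCC827ER at 7.29 and 5.15 CPM, against 30.3 and 10.6 CPM in HCC827. FXYD2, a regulator of the sodium pump near TMPRSS13, was at 35.9 CPM in PC-9GR and 0 CPM in PC-9ER, against 0 CPM in PC-9, and at 19.4 CPM in HCC827GR and 405 CPM in HCC827ER, against 6.45 CPM in HCC827. These genes were named after their values had been seen, and the differences were not tested.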
